A study of Mus musculus with 9 samples.

Results

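The replication-dependent histone genes were taken as every gene whose symbol carries the older mouse cluster name, Hist1h, Hist2h, Hist3h or Hist4h, which gave 68 of the 24318 genes in each deposited table. By class they were 6 H1, 18 H2A, 19 H2B, 12 H3 and 13 H4 genes, and by cluster 54 Hist1, 10 Hist2, 3 Hist3 and 1 Hist4 gene. The clusters lie on chromosomes 13, 3, 11 and 6, and 66 genes are protein-coding, while Hist2h3c2 and Hist3h2bb-ps are annotated as pseudogenes. RNA-seq was done on N2A cells, a mouse neuroblastoma line, 3 plates for each of 3 conditions and 9 libraries in all. The cells were transfected by Lipofectamine with scramble siRNA as the control, with siRNA against EXOSC3 (siEXOSC3) or with siRNA against DDX1 (siDDX1). Which of the EXOSC3 siRNAs was sequenced is not given in the sources used here. EXOSC3 is a cap subunit of the RNA exosome, the complex that trims and degrades RNA from its 3′ end, and DDX1 belongs to the DEAD-box family of RNA helicases. The comparison asks how the histone transcripts differed when either protein was depleted.

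Core histones H2A, H2B, H3 and H4 form the protein spool of the nucleosome, and linker histone H1 binds where DNA enters and leaves it. The replication-dependent genes are transcribed mainly in S phase, when new DNA has to be packaged. Their mRNAs have no introns and no poly(A) tail and end instead in a conserved stem-loop that the protein SLBP binds, which is why libraries depleted of ribosomal RNA, as here, hold them and libraries selected for poly(A) mostly do not.

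The stem-loop was looked for in the mm9 genome on each gene's strand, first as a 16-base run that opens with GG, closes with CC and holds TTTTCA in its middle, and then with up to 2 mismatches. It is printed because it is the feature that sets these transcripts apart, and the genes shown are the 10 with a match among the 11 that passed the test in a knockdown, with Hist1h4d as the example of the commonest H4 form. The 16 bases are in capitals, with 5 bases of the transcript on either side in lower case.
Hist1h1e, H1, chr13:23713651-23713666, minus strand: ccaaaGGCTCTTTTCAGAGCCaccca
Hist1h2ab, H2A, chr13:23843441-23843456, plus strand: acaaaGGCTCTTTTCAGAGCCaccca
Hist1h2ad, H2A, chr13:23666764-23666779, plus strand: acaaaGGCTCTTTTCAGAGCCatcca
Hist1h2bf, H2B, chr13:23665634-23665649, minus strand: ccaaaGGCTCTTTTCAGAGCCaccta
Hist3h2ba, H2B, chr11:58762851-58762866, plus strand: ccaaaGGCTCTTTTCAGAGCCacctt
Hist3h2bb-ps, H2B pseudogene, chr11:58767506-58767521, minus strand: tcaaaGGCTCTTTTCAGAGCCaccca
Hist1h2bb, H2B, chr13:23839072-23839087, plus strand: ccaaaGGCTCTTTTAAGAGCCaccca
Hist1h2bl, H2B, chr13:21807587-21807602, minus strand: tcaaaGGCTCTTTTAAGAGCCaccca
Hist1h3g, H3, chr13:23627758-23627773, plus strand: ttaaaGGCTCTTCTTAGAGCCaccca
Hist1h4d, H4, chr13:23673819-23673834, plus strand: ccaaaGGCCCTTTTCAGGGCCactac
Hist1h4i, H4, chr13:22132835-22132850, minus strand: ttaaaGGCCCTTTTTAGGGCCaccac

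An exact match was found in 50 of the 68 genes and a match with 1 or 2 mismatches in another 15. The form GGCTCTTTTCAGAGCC was shared by 40 genes of the H1, H2A, H2B and H3 classes, while the 10 exact matches among H4 genes were 8 of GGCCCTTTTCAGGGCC and 2 of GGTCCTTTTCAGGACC. Counted from the first base in capitals, with the base of the nearest exact form first, 9 genes carry C10A, among them Hist1h2bb and Hist1h2bl, and 3 carry C10T alone, among them Hist1h4i. Hist1h3g carries T8C and C10T. These changes lie in the loop, and all 6 pairs of the stem are kept in the 4 genes just named. Where the gene has an annotated stop codon, the matches, exact or within 2 mismatches, started 21 to 58 bases after it, and the pseudogene Hist3h2bb-ps was matched at its annotated end. The nearest windows of Hist2h2be and Hist2h2bb had 6 and 7 mismatches, and Hist2h2bb is annotated with its stop codon in a downstream exon, so its window does not adjoin the H2B reading frame. The pseudogene Hist2h3c2 had no exact match either, and with no annotated stop codon it was not searched with mismatches. Within 200 bases past the stop codon, the exact run was present in 54 of 18957 protein-coding genes (0.285%), of which 5 were not histone members.

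The transcripts were abundant in scramble cells. FPKM is the fragments of a transcript scaled by its length and by the mapped fragments of the library. Set side by side between genes, it rests on the length annotated for each gene. The annotation used and how shared reads were divided are not given in the sources used here. Of the 68 members, 47 had a scramble mean of at least 100 FPKM in the siEXOSC3 table, and 36 were among the 500 genes with the highest scramble mean. Hist2h2bb, an H2B gene, was the highest member with 2736 ± 250.0 FPKM (SD, n = 3), rank 29 of all genes. The H4 genes Hist2h4 and Hist1h4k followed with 2177 ± 310.0 and 1978 ± 939 FPKM. Hist2h2bb lay above Hist2h4 in all 3 scramble libraries with no overlap, while Hist2h4 and Hist1h4k overlapped and do not differ beyond their spread. In the other classes the 2 highest members were Hist1h1b and Hist1h1e for H1, Hist3h2a and Hist1h2ak for H2A, Hist2h2bb and Hist1h2bn for H2B, and Hist1h3i and Hist1h3h for H3. Hist1h4k reached that rank with 1011, 2038 and 2886 FPKM in the 3 scramble libraries, the widest range among the 6 highest members. Its annotated gene is the 312-base reading frame alone, as is that of Hist4h4, and no tested member is shorter.

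Not every member could be measured. A mean of at least 1 FPKM over the 6 libraries of a table was required for testing, and 56 members passed in each table. The other 12 never exceeded 0.982 FPKM in any library, and no member was listed at 0 in some libraries and above 1 FPKM in others. Several of the 12 have near copies. Hist1h2ao and Hist1h2ap, Hist1h2bq and Hist1h2br, and Hist2h2aa1 and Hist2h2aa2 have every 150-base window of their exons (the read length) repeated within the histone clusters. Hist1h4n was listed at 0 in all libraries beside its copy Hist1h4m at 1583 ± 179 FPKM in scramble, with 87.2% and 85.8% of windows repeated. A 0 listed for such a gene need not mean that it was silent, since how the authors' counting divided shared reads is not stated. All 13 H4 genes encode the same protein, and the 11 H3 genes with a reading frame encode 3.

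The depletions were checked on the targeted transcripts. Exosc3 fell to 15.5% ± 1.90 of the scramble mean in siEXOSC3 (log2 difference -2.53, SE 0.09, limma adjusted p = 1.11e-05). Ddx1 fell to 24.4% ± 2.99 in siDDX1 (log2 difference -2.01, SE 0.09, limma adjusted p = 9.53e-05). Each target was at 97.3% to 100.5% in the other knockdown. The relative depth, read from the step that a single fragment makes in low genes, ran from 0.824 to 1.2 of scramble replicate 1, while the absolute depth is unknown. Of 12 neuroblast markers, 10 were tested and only Nefl and Nefm were under 1 FPKM throughout. The astrocyte, microglia and fibroblast marker lists each summed to at most 0.686 FPKM per library, and of the endothelial markers Pecam1 alone was above 1 FPKM.

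After EXOSC3 depletion the histone genes did not move as a block. Of 56 tested members 5 rose, namely Hist1h4i, Hist2h2be, Hist3h2ba, Hist3h2bb-ps and Hist1h1e, and 6 fell, namely Hist1h2ad, Hist1h2bf, Hist1h3g, Hist1h2ab, Hist1h2bl and Hist1h2bb. These 11 genes are 19.6% of the members, below the 32.4% of all 11242 genes called in that comparison, where 16.7% rose and 15.7% fell. The test was limma on log2(FPKM + 1), two-sided, with Benjamini-Hochberg adjustment over all genes and an adjusted p of 0.05 as the threshold. An exact permutation test of 3 and 3 libraries reaches no p smaller than 0.1. Every siEXOSC3 library was above every scramble library for 6 members and below for 7, or 10.7% and 12.5% of them, while this held for 23.8% and 25.9% of all genes. The median log2 difference was -0.11 over the members (18 positive, 38 negative) and -0.01 over all genes. The number of decreases depended on the fit. With the trend on GC content and length removed 16 members fell and 4 rose, and the tested members had a median GC content of 59.4% and a median exonic length of 527 bases, against 49.9% and 3731 bases over all tested genes.

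**Figure D1:**
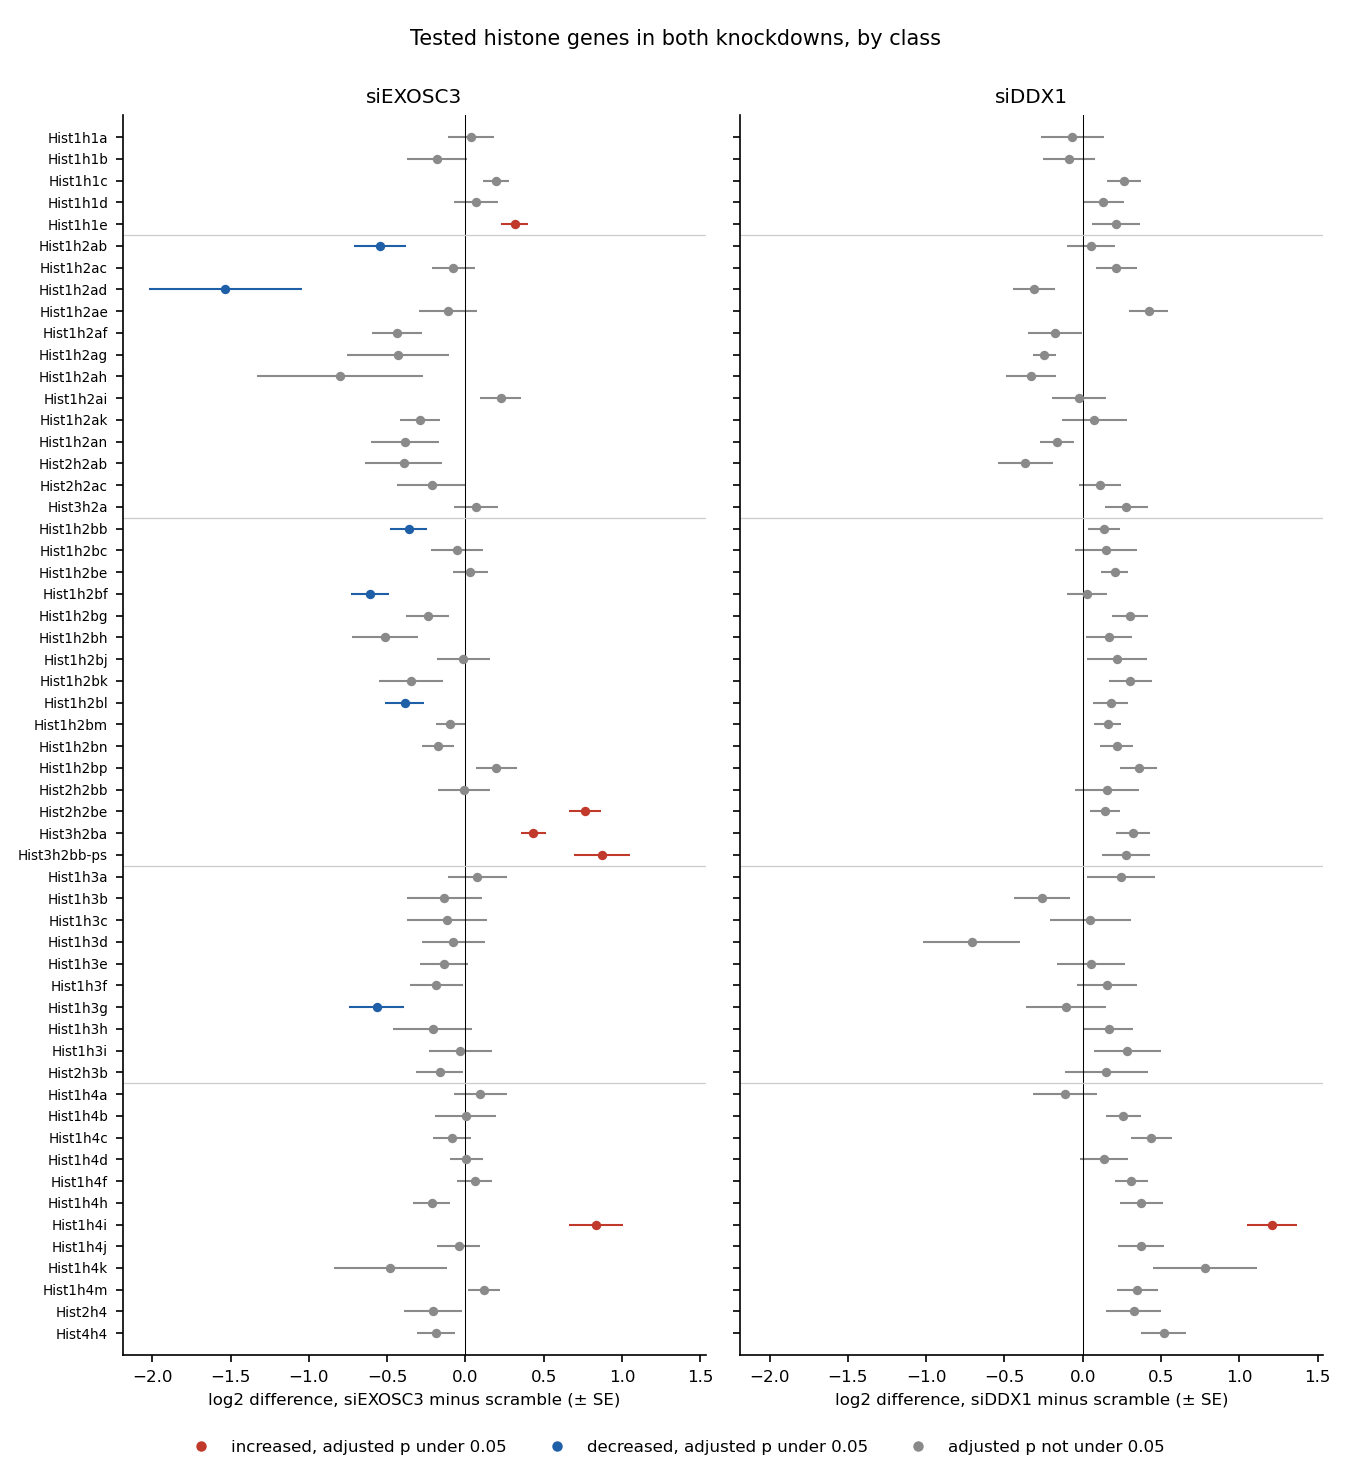
Log2 difference of each of the 56 tested members (dot) with its standard error (bar) in siEXOSC3 (left) and siDDX1 (right), ordered by class from H1 to H4, with genes past the threshold in red (increased) or blue (decreased). In siEXOSC3 5 genes are red and 6 blue, and in siDDX1 Hist1h4i alone is coloured.

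Hist1h4i, an H4 gene, was the single member past the threshold in both knockdowns. It is a gene of 1 exon at chr13:22132685-22133221 on the minus strand. Its FPKM were 121, 118 and 166 in the scramble libraries of the siEXOSC3 table and 286, 188 and 253 in siEXOSC3. All 3 siEXOSC3 libraries lay above all 3 scramble libraries, as they did for 23.8% of all genes. The mean rose 1.79-fold (log2 difference 0.83, SE 0.17, limma adjusted p = 0.00947). In the siDDX1 table the scramble libraries had 121, 117 and 164 FPKM and the siDDX1 libraries 373, 259 and 299 FPKM. Again no siDDX1 library was as low as the highest scramble library, which held for 17.0% of all genes. The mean rose 2.32-fold (log2 difference 1.21, SE 0.16, limma adjusted p = 0.00719). Both knockdowns were set against the same scramble libraries, so these are not independent observations of a rise. Only 3.09% of its windows are repeated elsewhere in the histone clusters. The 4 members around it on chromosome 13, taken up after their values were seen, did not pass the test in either knockdown. Hist1h2ah, Hist1h2bk, Hist1h2ag and Hist1h2bj had log2 differences of -0.80, -0.35, -0.43 and -0.01 in siEXOSC3 and of -0.33, 0.30, -0.24 and 0.22 in siDDX1.

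The 3 H2B genes that rose in siEXOSC3 lie outside the large Hist1 cluster. Hist2h2be, on chromosome 3, is an H2B gene known from olfactory sensory neurons and is 1 of the 3 members for which no stem-loop was found. It was the lowest of the tested members that rose, with 1.76, 1.67 and 2.0 FPKM in scramble and 4.12, 3.88 and 3.35 FPKM in siEXOSC3. The groups did not overlap and the mean rose 2.09-fold (log2 difference 0.76, SE 0.10, limma adjusted p = 0.00242). On the log2(FPKM + 1) scale a change of so low a gene is understated. In siDDX1 it had 1.95, 2.19 and 2.09 FPKM, overlapping scramble (log2 difference 0.14, SE 0.10, adjusted p = 0.358 by limma).

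All 3 genes of the Hist3 cluster on chromosome 11 had positive log2 differences in siEXOSC3, and the pair encoding or resembling H2B rose. Hist3h2ba had 155, 143 and 170.5 FPKM in scramble and 219, 217 and 198 FPKM in siEXOSC3. The pseudogene Hist3h2bb-ps had 26.1, 16.5 and 25.6 FPKM against 39.9, 49.8 and 35.9 FPKM. Neither gene's groups overlapped. The log2 differences were 0.43 (SE 0.08, limma adjusted p = 0.0068) and 0.87 (SE 0.18, limma adjusted p = 0.00942). Hist3h2a, which encodes H2A and starts 172 bases from the pseudogene on the opposite strand, had a log2 difference of 0.07 (SE 0.14) and overlapping groups. In siDDX1 the 3 genes had log2 differences of 0.32, 0.27 and 0.28 for Hist3h2ba, Hist3h2bb-ps and Hist3h2a, none past the threshold. Every siDDX1 library was above every scramble library for each, which held for 17.0% of all genes.

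Hist1h1e, which encodes linker histone H1.4, was the only H1 gene past the threshold. It had 449.9, 411 and 451 FPKM in scramble and 515, 605 and 517 FPKM in siEXOSC3, with no overlap (log2 difference 0.32, SE 0.09, limma adjusted p = 0.0253). The call was lost without scramble replicate 1, 2 or 3, where the limma adjusted p was 0.0741, 0.0927 and 0.0585, and with the GC and length trend removed, where the difference was 0.16 (limma adjusted p = 0.213). Over the 5 tested H1 genes the median log2 difference was 0.07 in siEXOSC3, with 4 positive, and 0.13 in siDDX1, with 3 positive. The siEXOSC3 median was -0.08 without siEXOSC3 replicate 2 and -0.02 without scramble replicate 2, with 2 of 5 positive in each, and 0.20 with 5 of 5 positive without siEXOSC3 replicate 3.

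The 6 members that fell in siEXOSC3 all belong to the Hist1 cluster and encode H2A, H2B or H3. Hist1h2ad, an H2A gene, had the largest difference of any member, from 77.6, 66.6 and 77.1 FPKM in scramble to 49.5, 9.04 and 32.9 FPKM in siEXOSC3. The siEXOSC3 libraries all lay below scramble but spread widely among themselves, with replicate 2 the lowest (log2 difference -1.53, SE 0.49, limma adjusted p = 0.0424). Without that library the log2 difference was -0.85 (limma adjusted p = 0.00272). The call was lost without scramble replicate 1, 2 or 3, with limma adjusted p of 0.115, 0.0888 and 0.12. Hist1h2bf, an H2B gene, starts 184 bases away on the opposite strand, so the 2 genes form a divergent pair. It had 38, 30.6 and 31.6 FPKM in scramble and 24.6, 18.3 and 22.0 FPKM in siEXOSC3, and the groups did not overlap. Its log2 difference was -0.61 (SE 0.12, limma adjusted p = 0.00806), and it is the only one of the 6 that stayed past the threshold without each library in turn. Members form 13 such divergent pairs with at most 500 bases between the genes, and this was the 1 pair with both genes past the threshold in siEXOSC3, while in 3 other pairs 1 gene passed. The pairs of Hist1h2bq with Hist1h2ao, Hist1h2ap with Hist1h2br and Hist1h2ba with Hist1h2aa held no tested gene and could not be called.

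The remaining 4 decreases were smaller or less certain. Hist1h3g, an H3 gene, had 149.6, 146 and 190.3 FPKM in scramble and 117, 133 and 81.7 FPKM in siEXOSC3 (log2 difference -0.57, SE 0.17, limma adjusted p = 0.0379). Hist1h2ab, an H2A gene, had 188, 167 and 238 FPKM against 138, 162 and 107 FPKM (log2 difference -0.54, SE 0.17, limma adjusted p = 0.0383). In both the siEXOSC3 libraries lay below the scramble libraries, by a narrow gap in Hist1h2ab. The H2B gene Hist1h2bl had 651, 589 and 699 FPKM against 492, 583 and 417 FPKM (log2 difference -0.39, SE 0.12, limma adjusted p = 0.0442). The H2B gene Hist1h2bb had 299, 289 and 313 FPKM against 227, 282 and 198 FPKM (log2 difference -0.36, SE 0.12, limma adjusted p = 0.048). Here too the groups did not overlap, with siEXOSC3 replicate 2 just below the lowest scramble value. Leaving out a library ended these calls in 4 or 5 of 6 cases each. Without scramble replicate 1 the limma adjusted p was 0.0791 for Hist1h3g, 0.0909 for Hist1h2ab, 0.126 for Hist1h2bl and 0.125 for Hist1h2bb. Without scramble replicate 3 it was 0.134, 0.13, 0.14 and 0.14 in the same order, and without siEXOSC3 replicate 1 it was 0.0736, 0.0889, 0.111 and 0.131. Without scramble replicate 2 the call ended for Hist1h3g (0.0633), Hist1h2bl (0.061) and Hist1h2bb (0.0917), and without siEXOSC3 replicate 3 for Hist1h2ab (0.0636), Hist1h2bl (0.0781) and Hist1h2bb (0.0813). Hist1h2ah, an H2A gene with the next largest negative difference after Hist1h2ad, did not pass (log2 difference -0.80, SE 0.53, limma adjusted p = 0.27). Its siEXOSC3 libraries had 119.6, 134 and 25.3 FPKM and overlapped scramble, with replicate 3 alone far below.

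**Figure D2:**
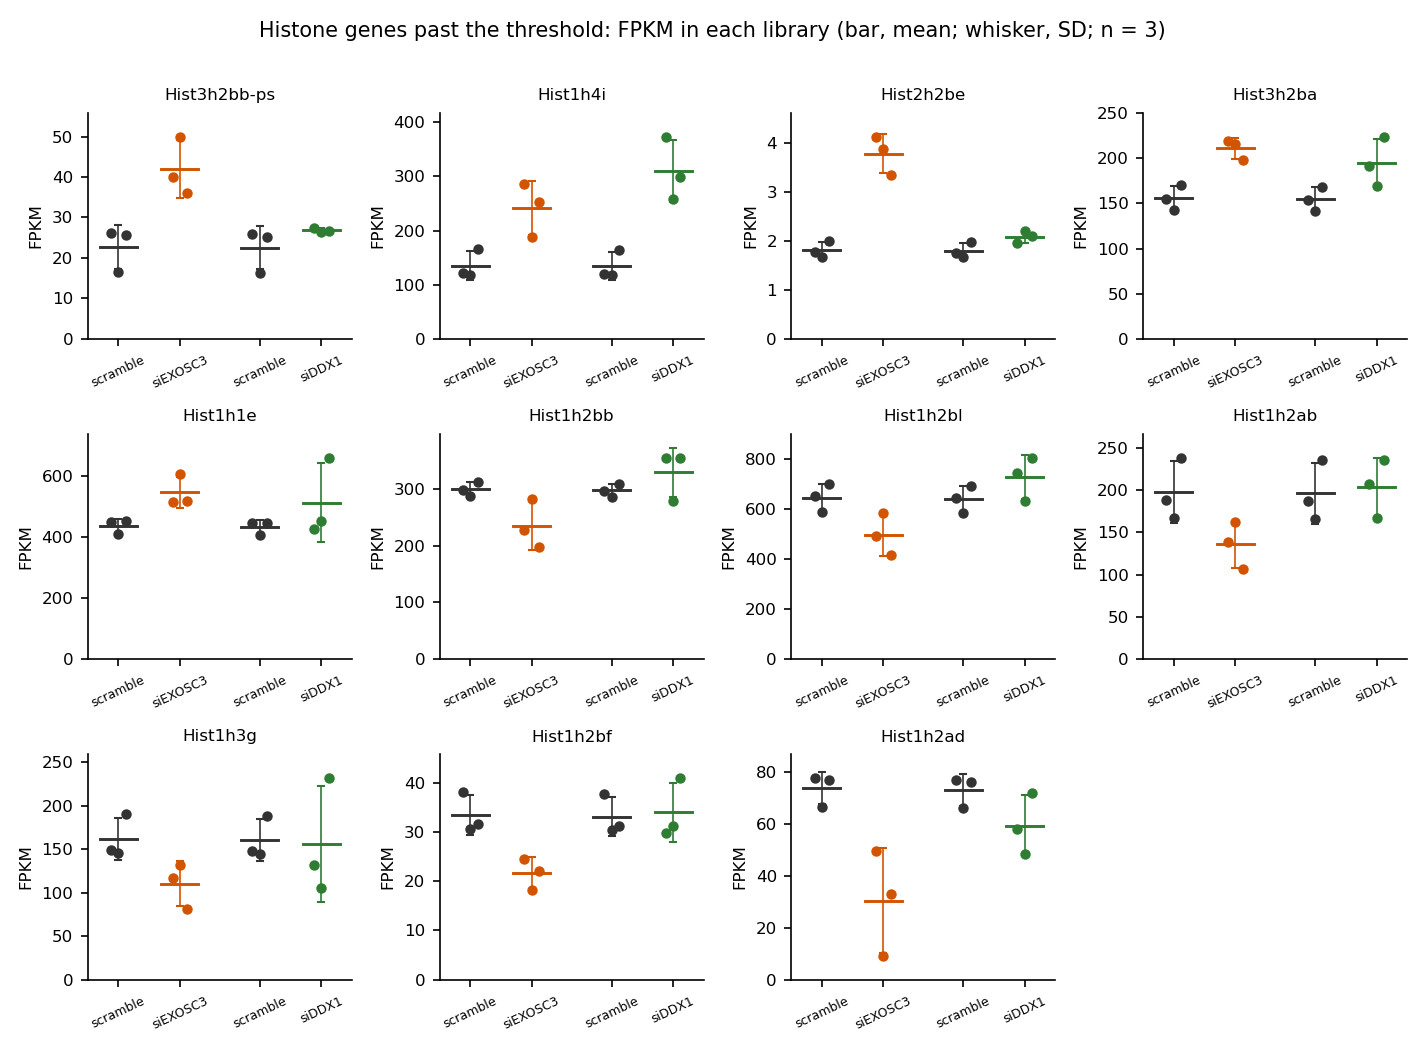
FPKM of the 11 members past the threshold in at least 1 knockdown, each on its own axis from 0. Dots are libraries, the horizontal bar is the mean and the whisker the SD (n = 3), with the scramble libraries drawn once from each table beside the knockdown of that table. Hist1h4i stands above scramble in both knockdowns, while the other 10 genes separate from scramble in siEXOSC3 and were not past the adjusted threshold in siDDX1.

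By class, with 16.7% of all genes increased and 15.7% decreased for comparison, the H2A genes had the lowest median log2 difference in siEXOSC3, -0.39, with 11 of 13 negative and 2 decreased. The H3 genes had a median of -0.14 with 9 of 10 negative and 1 decreased. The H2B genes held 3 of the increases and 3 of the decreases among 16, with a median of -0.07, and the H4 genes were evenly divided, with 6 of 12 positive and a median of -0.02. With the GC and length trend removed the medians were -0.63 for H2A, -0.26 for H2B and for H3, -0.24 for H4 and 0.10 for H1. Without siEXOSC3 replicate 3 the H2A median was -0.04 with 6 of 13 positive, the H3 median 0.15 with 7 of 10 positive and the H2B median 0.04. Without scramble replicate 3 the H3 median was -0.03. Without siEXOSC3 replicate 2 the H2B, H3 and H4 medians were -0.20, -0.29 and -0.10, with 5 of 16, 0 of 10 and 2 of 12 positive. Without scramble replicate 2 the H3 and H4 medians were -0.23 and -0.11, with 0 of 10 and 3 of 12 positive. The H4 median was 0.04 without siEXOSC3 replicate 3 and without scramble replicate 3, with 8 and 7 of 12 positive. These medians are descriptions, and no test was made between classes.

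The members were also divided by how much of each gene is repeated within the histone clusters. Among the 21 tested members with under 10% of windows repeated, 5 rose and 0 fell by limma, or 23.8% and 0, while 16.7% and 15.7% of all genes rose and fell. At an unadjusted p under 0.05, 6 of these 21 were higher and 0 lower, or 28.6% and 0, against 22% and 23.4% of all genes. Among the 35 tested members with more, 0 rose and 6 fell by limma, or 17.1%, and 0 were higher and 8 lower at an unadjusted p under 0.05, or 22.9%. The share called in the direction each group showed was near that of all genes. In the other direction 0 fell in the first group and 0 rose in the second, while 15.7% and 16.7% of all genes did. No test was made between the groups. Repeated windows ran from 10.6% in Hist1h2bf to 59.3% in Hist1h2ad over the 6 that fell, and from 0 to 3.09% over the 5 that rose. The 10% cut was not fixed in advance and lies between these ranges. The part of shared reads in the calls was not tested. The reads did not mark strand, so a gene and a partner on the other strand cannot be told apart where they overlap, but none of the 11 called members overlaps another annotated gene.

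The 3 siEXOSC3 libraries differed from each other in a direction that most members shared. Replicate 3 was the lowest of the 3 for 49 of the 56 tested members, and replicate 2 was the highest for 44. Set against the scramble mean of each gene, the median member stood at a log2 difference of -0.01 in replicate 1, 0.16 in replicate 2 and -0.40 in replicate 3. The scramble libraries stood at -0.01, -0.15 and 0.15, and the median of all genes lay within 0.02 of 0 in every siEXOSC3 library. The H2A genes spread furthest, with a median of 0.09 in replicate 2, where 8 of 13 lay above the scramble mean, and of -0.82 in replicate 3, where 0 of 13 did. Within the siEXOSC3 group the median SD of a member on the log2 scale was 0.301, against 0.121 for the other genes and 0.107 for the 1361 other genes with a mean log2 value of at least 6. Within scramble it was 0.174 against 0.0782 and 0.0654. Histone levels varied more between replicate plates than most genes did, in the scramble group as well.

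**Figure D3:**
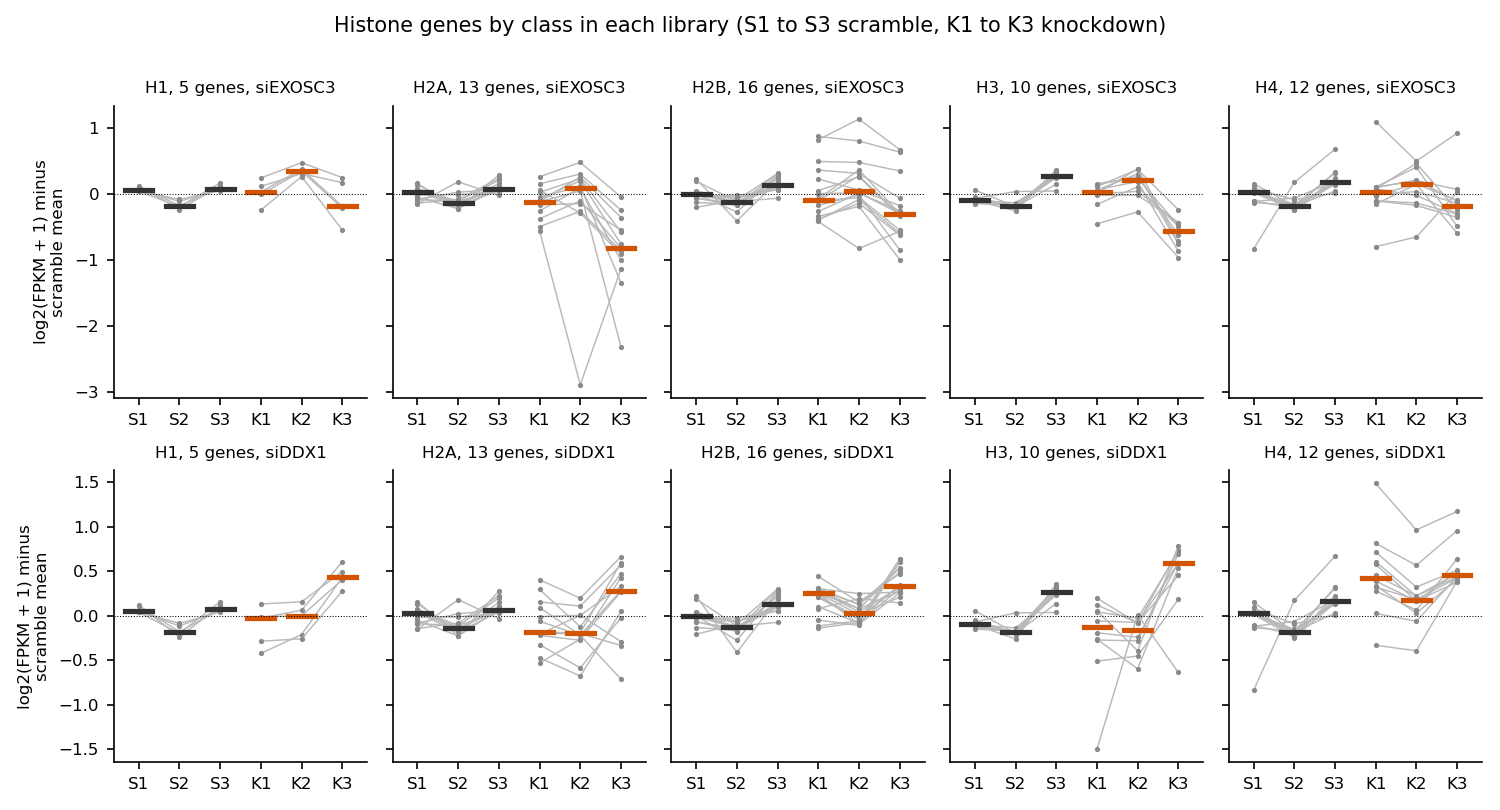
Log2(FPKM + 1) of each tested member minus its scramble mean, by class from left to right, in the scramble (S1 to S3) and knockdown (K1 to K3) libraries of the siEXOSC3 table (top) and the siDDX1 table (bottom). Dots are genes, grey lines join the values of 1 gene and thick bars are class medians, and the H2A median in siEXOSC3 stands at 0.09 in replicate 2 and at -0.82 in replicate 3.

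Single libraries moved the siEXOSC3 counts. Without siEXOSC3 replicate 3 the median over members was 0.06 in place of -0.11, with 35 of 56 positive, and 7 members rose and 3 fell. Without siEXOSC3 replicate 2 the median was -0.23, and 5 rose and 11 fell. Without siEXOSC3 replicate 1 and without scramble replicate 1, 2 or 3 the decreases numbered 2, 1, 2 and 1. The increases stayed between 4 and 7 in all 6 cases. Hist1h4i, Hist2h2be, Hist3h2ba, Hist3h2bb-ps and Hist1h2bf were past the threshold in every one of them.

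DDX1 depletion gave a single call among the histone genes. Of 56 tested members 1 rose, Hist1h4i, and 0 fell by limma at an adjusted p under 0.05, which is 1.79% of the members, while 10.6% of all 11104 genes were called (5.61% up, 5.03% down). At an unadjusted p under 0.05 there were 14 members higher and 2 lower, or 25% and 3.57%, against 15.1% and 15% of all genes. The median log2 difference was 0.16 over the members, with 43 positive and 13 negative, and 0.00 over all genes. Every siDDX1 library was above every scramble library for 11 members, a share of 19.6% against 17.0% of all genes, and below for 1 member, Hist1h2ag, while 17.8% of all genes were below. The siDDX1 median was 0.04 after quantile normalization (35 positive) and 0.05 with the GC and length trend removed (32 positive), and each of these fits called 1 increase and 1 decrease.

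Among the classes, the H4 genes, which all encode 1 protein, had the highest median log2 difference in siDDX1. Of 12 tested H4 genes 11 had a positive log2 difference, with a median of 0.36, and 6 had non-overlapping groups. At an unadjusted p under 0.05, 8 of the 12 were higher and 0 lower, and 1 passed the adjusted threshold by limma, while over all genes 17.0% had siDDX1 above with no overlap, 15.1% were higher at that unadjusted p and 5.61% rose. The siDDX1 libraries had 11, 10 and 12 of the 12 genes above the scramble mean. After quantile normalization the H4 median was 0.15 and with the GC and length trend removed 0.20, with 10 of 12 positive in both.

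Hist4h4, the single gene of the Hist4 cluster on chromosome 6, came closest to the threshold after Hist1h4i. It had 864, 723 and 1000.2 FPKM in scramble and 1406, 1069.6 and 1219 FPKM in siDDX1, with no overlap (log2 difference 0.52, SE 0.15, limma adjusted p = 0.0569). Hist1h4c had 826, 705 and 896 FPKM against 1229, 939 and 1123 FPKM, again apart (log2 difference 0.44, SE 0.13, limma adjusted p = 0.0672). Hist4h4 and Hist1h4c were taken up after their values were seen. Hist1h4k had the largest positive log2 difference after Hist1h4i, with 1003, 2022 and 2852 FPKM in scramble and 3156, 2659.9 and 3486 FPKM in siDDX1. Its groups overlapped, with siDDX1 replicate 2 below the highest scramble library, and it did not pass (log2 difference 0.78, SE 0.33, limma adjusted p = 0.159). In siEXOSC3 the same gene had 1038, 1149 and 1836 FPKM (log2 difference -0.48, SE 0.36, limma adjusted p = 0.327).

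All 16 tested H2B genes had positive log2 differences in siDDX1, with a median of 0.19, 2 pairs of groups apart and none called by limma, while 4 were higher and 0 lower at an unadjusted p under 0.05, against 17.0% of all genes apart and 15.1% higher. That uniformity was weaker in other fits, with 14 of 16 positive after quantile normalization and 11 of 16 with the GC and length trend removed. The H2B median ran from 0.12 to 0.28 as each library was left out. It had 13 of 16 positive without siDDX1 replicate 3 and 15 of 16 without scramble replicate 2 or 3. The H2A genes were divided, with 6 positive and 7 negative and a median of -0.02. After quantile normalization and with the GC and length trend removed 10 of 13 were negative and 1 decreased, with medians of -0.11 and -0.10. Without siDDX1 replicate 3 the H2A median was -0.14, with 10 of 13 negative and 5 decreased, and without siDDX1 replicate 2 it was 0.10. The H3 median was 0.10 with 7 of 10 positive, and it was 0.00 after quantile normalization and -0.02 with the GC and length trend removed. Without siDDX1 replicate 3 the H3 median was -0.19, with 3 of 10 positive and 2 decreased. H1, with 3 of 5 positive, had a median of 0.13, and of -0.01 without that library.

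The largest negative log2 differences in siDDX1 belonged to an H3 and an H2A gene, and neither passed. Hist1h3d had 95.5, 103 and 103 FPKM in scramble and 34.8, 101 and 64.1 FPKM in siDDX1 (log2 difference -0.71, SE 0.31, limma adjusted p = 0.167). Replicate 2 lay among the scramble values, and without it the log2 difference was -1.07 (limma adjusted p = 0.0472). Hist2h2ab had 51.6, 53.9 and 67.0 FPKM against 40.9, 35.4 and 59.1 FPKM, with siDDX1 replicate 3 inside the scramble range (log2 difference -0.37, SE 0.18, limma adjusted p = 0.203).

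The siDDX1 libraries also differed among themselves. Replicate 3 was the highest of the 3 for 44 members and replicate 2 the lowest for 41, and the medians against scramble were 0.10, -0.02 and 0.44. The median SD of a member within siDDX1 was 0.253, against 0.115 for the other genes. Without siDDX1 replicate 3 the median was 0.02, and 4 members rose and 9 fell. The 4 were Hist1h2ae, Hist1h4c, Hist1h4i and Hist4h4. Without siDDX1 replicate 2 the median was 0.28, and 2 rose and 1 fell. Hist1h4i passed in all of these fits.

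Of the 2 most abundant members of each class, Hist1h1e in siEXOSC3 was the single call. Hist1h1b, which encodes linker histone H1.5, had 661, 514 and 661 FPKM in scramble and 511, 727 and 415 FPKM in siEXOSC3 (log2 difference -0.18, SE 0.19), and its log2 difference was -0.09 in siDDX1. Hist2h2bb had 2707, 2502 and 2999.7 FPKM in scramble and 2584, 3500.3 and 2212 FPKM in siEXOSC3, so that siEXOSC3 lay on both sides of scramble (log2 difference -0.01, SE 0.16), and in siDDX1 its log2 difference was 0.16. For the others the log2 differences in siEXOSC3 and siDDX1 were -0.29 and 0.07 for Hist1h2ak, -0.17 and 0.22 for Hist1h2bn, -0.03 and 0.29 for Hist1h3i, -0.21 and 0.17 for Hist1h3h, and -0.21 and 0.33 for Hist2h4.

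The FPKM were then summed by class, so that copies among which reads were divided count together. In siEXOSC3 the summed FPKM, as a percent of the scramble mean, was 106 ± 17.8 for H1, 88.7 ± 20.9 for H2A, 94.2 ± 17.1 for H2B, 92.8 ± 24.7 for H3 and 94.3 ± 8.89 for H4 (SD, n = 3). Over all classes it was 94.3 ± 14.4%, from 79.7% to 108%, while scramble ran from 90.6% to 113%. In siDDX1 it was 108 ± 23.4% for H1, 107 ± 18.7% for H2A, 116 ± 21.9% for H2B, 108 ± 33.3% for H3 and 128 ± 18.2% for H4. The siDDX1 sum over all classes was 119 ± 20.5%, from 102% to 142%, against 90.7% to 113% in scramble. For every class and in both knockdowns the range of the depleted libraries overlapped that of scramble. The members together held 3.46% to 4.63% of the summed FPKM of a scramble library, 3.25% to 4.21% in siEXOSC3 and 3.41% to 5.45% in siDDX1.

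**Figure D4:**
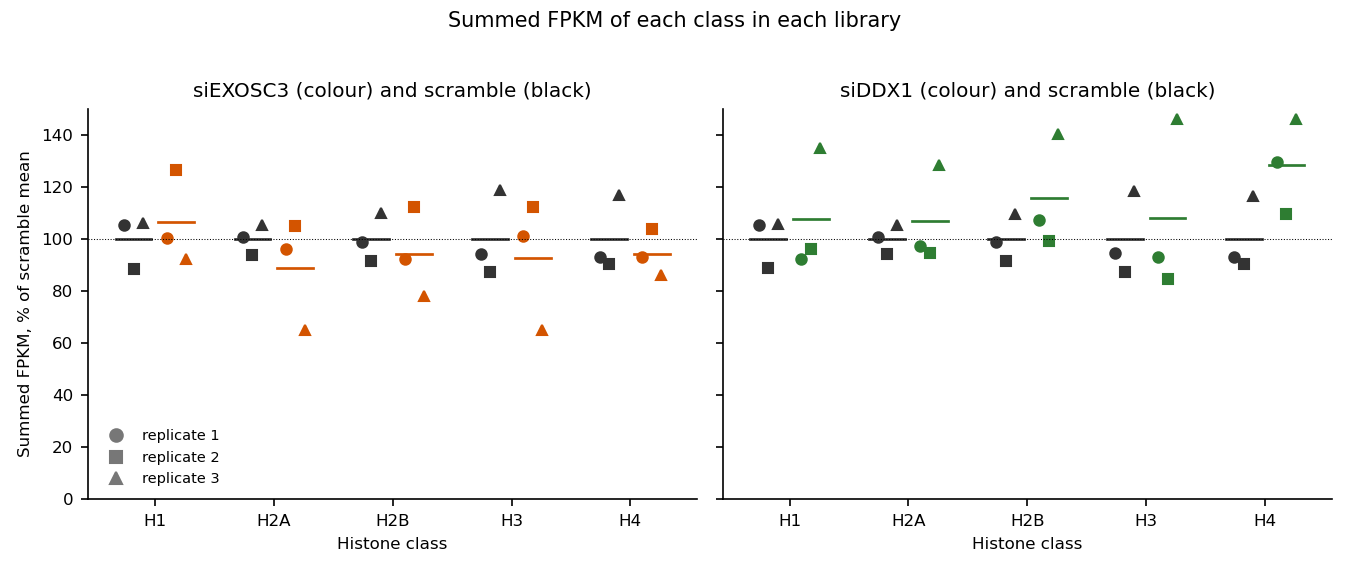
Summed FPKM of each histone class as a percent of the scramble mean, for siEXOSC3 (left) and siDDX1 (right), with the scramble libraries in black. Symbols are the libraries, 1 shape per replicate number, and horizontal lines are means (n = 3). The H4 sums in siDDX1, from 109.75% to 146%, still overlap the scramble range of 90.5% to 117%.

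Position and 3′ end were set beside the differences, and the counts of called members stand beside 16.7% of all genes increased and 15.7% decreased in siEXOSC3. By cluster, the median log2 differences in siEXOSC3 were -0.11 over 46 Hist1 genes (2 increased, 6 decreased), -0.18 over 6 Hist2 genes (1 increased), 0.43 over the 3 Hist3 genes (2 increased) and -0.19 for the Hist4 gene. In siDDX1 they were 0.16, 0.15, 0.28 and 0.52 in the same order. By stem-loop, the 32 tested genes with the commonest form had a median of -0.09 in siEXOSC3 with 3 increased and 3 decreased, or 9.38% each. The 13 with 1 or 2 mismatches had -0.22 with 1 increased and 3 decreased, and the 9 H4 genes with an exact loop on another stem had -0.04 with none called by limma and none at an unadjusted p under 0.05. In siDDX1 the medians of these 3 groups were 0.16, 0.11 and 0.37, and the 1 call, Hist1h4i, carries C10T in the loop. Hist2h4, with the same 16 bases, and Hist2h2ac, with C10T as well, did not pass in either knockdown. At an unadjusted p under 0.05, 6, 1 and 7 genes of the 3 groups were higher, or 18.8%, 7.69% and 77.8%, against 15.1% of all genes. In the group with the commonest form 2 genes were lower, and none of the 7 H4 genes passed the adjusted threshold by limma. The group on another stem holds H4 genes only, so stem form and class cannot be told apart there.

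The factors that make and remove histone mRNA were taken from lists, whose counts stand beside 16.7% of all genes increased and 15.7% decreased in siEXOSC3 and 5.61% and 5.03% in siDDX1. Of 10 tested transcription factors for histone genes and their cyclin partners, 3 fell and 1 rose in siEXOSC3 and 4 fell in siDDX1. Leaving out each library gave 1 to 5 decreases in siEXOSC3 and 0 to 5 in siDDX1, with 0 in siDDX1 without scramble replicate 1 or 3. Npat, the coactivator of histone loci, fell in siEXOSC3 from 15.9, 17.3 and 14.8 FPKM to 11.7, 11.9 and 11.9 FPKM (log2 difference -0.40, SE 0.08, limma adjusted p = 0.00669). In siDDX1 it had 12, 13.9 and 11.6 FPKM, below scramble in every library but not past the threshold (log2 difference -0.32, SE 0.09, limma adjusted p = 0.0568). Casp8ap2, also called FLASH, a factor of histone mRNA 3′ end processing, fell in both, by 0.33 in siEXOSC3 (limma adjusted p = 0.0422) and by 0.45 in siDDX1 (limma adjusted p = 0.0458) on the log2 scale. Each of these 2 calls was lost in 5 of the 6 fits that left out a library, with limma adjusted p up to 0.124 and 0.151. Ccne1, cyclin E1, fell in siDDX1 (log2 difference -0.60, SE 0.10, limma adjusted p = 0.012) and had a log2 difference of -0.14 in siEXOSC3, which did not pass. Its call in siDDX1 was lost without scramble replicate 1 or 3 (limma adjusted p = 0.07 and 0.0643), while the Npat call in siEXOSC3 was kept without each library in turn.

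Of 15 tested genes of the 3′ end processing machinery, 3 fell in siEXOSC3 and 2 in siDDX1, and none rose by limma. These counts went from 0 to 4 and from 0 to 3 as each library was left out, with 0 in both without scramble replicate 1. Slbp, which encodes the stem-loop binding protein, had 43.0, 42.2 and 39.6 FPKM in the scramble libraries of the siDDX1 table and fell to 31.5, 32.2 and 33.2 FPKM in siDDX1. The groups did not overlap (log2 difference -0.35, SE 0.06, limma adjusted p = 0.0128), and the call was lost without siDDX1 replicate 2 or scramble replicate 1 (limma adjusted p = 0.0532 and 0.0757). In siEXOSC3 it had 39.2, 39.8 and 31.7 FPKM against 43.4, 42.5 and 40.0 FPKM, also below scramble in every library, without passing (log2 difference -0.19, SE 0.09, limma adjusted p = 0.153). Snrpg, a ring subunit that U7 shares with spliceosomal snRNPs, fell in siEXOSC3 (log2 difference -0.49, SE 0.10, limma adjusted p = 0.00977), a call lost without scramble replicate 1 (limma adjusted p = 0.0501), and had 0.14 in siDDX1. The ring subunits particular to the U7 snRNP did not pass, with log2 differences of 0.18 and 0.13 for Lsm10 and of -0.10 and 0.03 for Lsm11 in siEXOSC3 and siDDX1.

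Among 9 genes of histone mRNA decay 1 rose and 2 fell in siEXOSC3, and 1 rose in siDDX1. Dcp2, the decapping enzyme, and Upf1, a helicase of RNA surveillance, fell in siEXOSC3 by 0.42 (limma adjusted p = 0.0102) and 0.45 (limma adjusted p = 0.0113) on the log2 scale. Zcchc11, a terminal uridylyl transferase named here after its values were seen, rose in both, by 0.26 (limma adjusted p = 0.0374) and 0.32 (limma adjusted p = 0.0196). Without scramble replicate 1 all of these decay calls were lost in both knockdowns, and the Upf1 call was also lost without scramble replicate 3 (limma adjusted p = 0.0509). The Zcchc11 call was lost in 5 of 6 such fits in siEXOSC3 and 4 of 6 in siDDX1. Eri1, the exonuclease that acts at the stem-loop, had log2 differences of -0.07 and -0.03.

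Among 10 tested variant histones, whose genes are read outside S phase as well, 1 rose and 2 fell in siEXOSC3 and 1 rose in siDDX1. H1f0, the linker histone of resting and differentiated cells, had 115, 98 and 139 FPKM in scramble and 190.5, 231 and 216 FPKM in siEXOSC3. The groups did not overlap, and the mean rose 1.81-fold (log2 difference 0.86, SE 0.13, limma adjusted p = 0.00299). In siDDX1 it had 136, 144 and 254 FPKM and did not pass (log2 difference 0.57, SE 0.23, limma adjusted p = 0.138). Cenpa, the H3 variant of centromeres, fell in siEXOSC3 from 24.6, 25.1 and 25.3 FPKM to 19.9, 20.9 and 15.8 FPKM (log2 difference -0.40, SE 0.10, limma adjusted p = 0.0196), while in siDDX1 its log2 difference was -0.05. The H1f0 call was kept without each library in turn, and the Cenpa call was lost without scramble replicate 1, 2 or 3 (limma adjusted p = 0.0652, 0.0605 and 0.069). Of 15 tested genes for chaperones and import factors, which carry histones to chromatin, 7 fell in siEXOSC3, against 15.7% of all genes, among them Rbbp7 (log2 difference -0.31, limma adjusted p = 0.0163) and Chaf1b of chromatin assembly factor 1 (log2 difference -0.31, limma adjusted p = 0.0172). Chaf1b was the 1 gene of that list to fall in siDDX1 (log2 difference -0.31, limma adjusted p = 0.0215). The siEXOSC3 count of 7 became 0 when siEXOSC3 replicate 1 or scramble replicate 1 or 3 was left out, 2 when scramble replicate 2 was, and 9 when siEXOSC3 replicate 2 was. The Chaf1b call in siDDX1 was lost in 4 of 6 such fits.

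**Figure D5:**
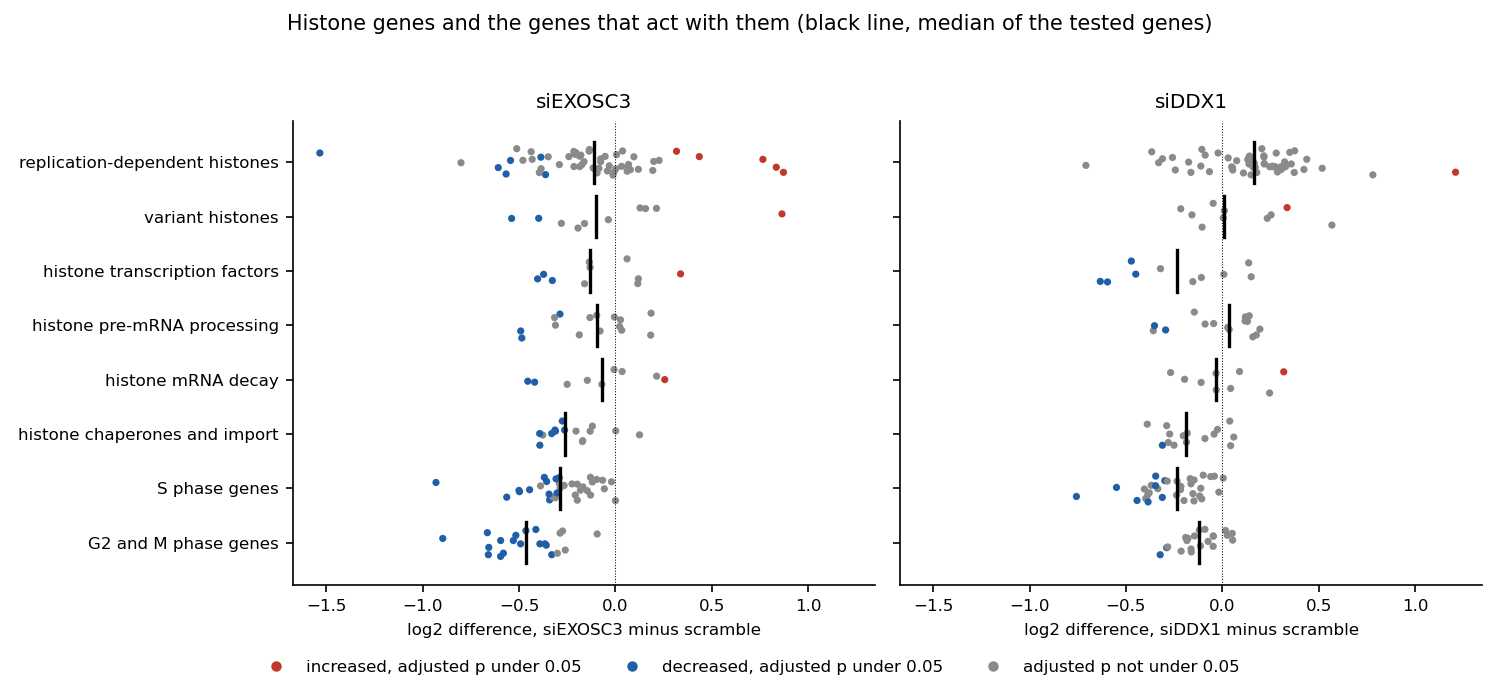
Log2 difference of every tested gene of the histone members and of 7 lists, 1 dot per gene, for siEXOSC3 (left) and siDDX1 (right), with increased genes in red, decreased genes in blue and a black line at the median. The S phase genes have medians of -0.29 and -0.23 and the G2 and M phase genes of -0.46 and -0.12, while the histone members have -0.11 and 0.16.

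The cell cycle genes were measured beside the histones because histone mRNA is made in S phase, and 15.7% of all genes fell in siEXOSC3 and 5.03% in siDDX1. All 33 S phase genes had negative log2 differences in siEXOSC3, with a median of -0.29 and 12 decreased, and 32 of 33 did in siDDX1, with a median of -0.23 and 8 decreased. Ung, the uracil DNA glycosylase, fell in both, from 7.50, 7.47 and 7.87 FPKM to 4.02, 4.04 and 2.65 FPKM in siEXOSC3 (log2 difference -0.93, SE 0.13, limma adjusted p = 0.00261), and by 0.35 on the log2 scale in siDDX1 (limma adjusted p = 0.0458). Mcm3, a subunit of the replicative helicase, fell in siEXOSC3 (log2 difference -0.50, SE 0.08, limma adjusted p = 0.00398) and had -0.02 in siDDX1. All 21 G2 and M phase genes had negative log2 differences in siEXOSC3, with a median of -0.46 and 16 decreased. Bub1b of the spindle checkpoint and the kinase gene Aurka fell by 0.66 (limma adjusted p = 0.00106) and 0.90 (limma adjusted p = 0.00242). In siDDX1 the median was -0.12 with 17 negative and 2 decreased, of which Aurka fell by 0.32 (limma adjusted p = 0.0152).

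Library by library, the medians of the S phase list and of the histone members stood in the same order within siEXOSC3, within siDDX1 and within scramble. The median of the S phase genes against the scramble mean was -0.29, -0.03 and -0.44 in siEXOSC3 replicates 1, 2 and 3, where the histone medians were -0.01, 0.16 and -0.40. In siDDX1 the S phase medians were -0.28, -0.30 and -0.10 and the histone medians 0.10, -0.02 and 0.44. In the scramble libraries of the siEXOSC3 table they were 0.02, -0.06 and 0.03 for the S phase genes and -0.01, -0.15 and 0.15 for the histones. Without siEXOSC3 replicate 3 the S phase median in siEXOSC3 was -0.15, with 4 of 33 positive. The number of S phase genes past the threshold depended on single libraries. In siEXOSC3 it was 12, and 5, 27 and 8 without siEXOSC3 replicate 1, 2 and 3 and 5, 7 and 5 without scramble replicate 1, 2 and 3. In siDDX1 it was 8, and 3, 2 and 22 without siDDX1 replicate 1, 2 and 3 and 1, 4 and 1 without scramble replicate 1, 2 and 3. The G2 and M phase count ran from 10 to 20 in siEXOSC3 and from 0 to 5 in siDDX1 over the same fits. The median of that list ran from -0.55 to -0.36 in siEXOSC3 and from -0.17 to -0.06 in siDDX1 over these fits. The siEXOSC3 calls of Ung, Mcm3, Bub1b and Aurka were kept in all of them, while in siDDX1 the Ung call was lost in 5 and the Aurka call in 3 of 6. In bulk libraries fewer cells in S phase and less histone mRNA per cell cannot be told apart. Of the neuroblast markers, 6 of 10 tested ones rose in siEXOSC3, where their summed level ran from 845 to 879 FPKM against 526 to 584 FPKM in scramble, and 1 of 10 rose in siDDX1, while 16.7% and 5.61% of all genes rose. The endothelial marker Pecam1 rose in siEXOSC3 (log2 difference 0.67, limma adjusted p = 0.00827) while the defining markers Cdh5 and Kdr stayed under 1 FPKM. The part of the cell cycle, of differentiation state and of the spread between plates in the histone values was not tested.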

How the data were processed

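Total RNA was taken with TRIzol from N2A cells in biological triplicate, ribosomal RNA was removed with Ribo-zero, and nondirectional libraries were read as 150-base pairs. The authors aligned reads to mm9 with TopHat 2.1.0 and deposited Cuffdiff 2.2.1 FPKM, in 2 tables, each with its knockdown and the same 3 scramble libraries. Between the tables a scramble library differs by a factor of 1.008 to 1.012. The annotation and normalization given to Cuffdiff are not given in the sources used here.

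Each table was tested on its own. Genes with a mean of at least 1 FPKM over 6 libraries were fitted on log2(FPKM + 1) with limma 3.58.1 (R 4.3.3, trend in eBayes, two-sided, Benjamini-Hochberg adjusted p under 0.05), which gave 11242 genes for siEXOSC3 and 11104 for siDDX1. The script was tested on simulated data. Fold changes are ratios of group means, and log2 differences are understated in low genes. Alternatives were a pseudocount of 0.1, no filter or a mean of at least 5 FPKM, quantile normalization, centring on the median, no trend, a replicate block, removal of a loess trend on GC content and length (10258 genes), an adjusted p under 0.01, and each library left out. Depth is unknown, since FPKM keep no counts.

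Coordinates, stop codons and sequence came from GENCODE vM1 on the mm9 build, in which all 68 members were matched by symbol. The search for the stem-loop past the stop codon and with up to 2 mismatches was chosen after seeing the data. Named genes were the targets, every called member, the 2 highest members of a class in scramble, the 2 largest differences each way, and in each list the called genes with the 2 lowest adjusted p plus Slbp, Npat, Casp8ap2, Lsm10, Lsm11 and Eri1. The members and lists were chosen with earlier results of these data known.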

Additional observations from a re-analysis of the deposited data

How the results depend on the processing

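The 11 members past the threshold in siEXOSC3 separated into firm and fragile calls. Hist1h4i, Hist3h2ba, Hist3h2bb-ps and Hist1h2bf passed in all 9 other alternatives and without each of the 6 libraries, and so did Hist2h2be except where a mean of at least 5 FPKM removed it. The decreases in siEXOSC3, 6 in the reported fit, numbered 1 with no filter on FPKM, 3 without the intensity trend, 16 with the GC and length trend removed and 1 at an adjusted p under 0.01, and from 1 to 11 when each library was left out. In siDDX1 the decreases, 0 in the reported fit, numbered 1 after quantile normalization, 1 with the GC and length trend removed and 0 to 9 without each library in turn, while the increases ran from 1 to 4 without each library. The increases in siEXOSC3 stayed within 1.5 times the reported 5 throughout, and the causes were not tested. The median log2 difference over members kept its sign in every setting except without siEXOSC3 replicate 3 (0.06).

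Replicate numbers did not pair the samples in the siEXOSC3 table and did so only in part in the siDDX1 table. Deviations from the group means correlated between same-numbered libraries at r = 0.03, -0.31 and -0.13 across genes in the siEXOSC3 table and at -0.01, 0.38 and 0.37 in the siDDX1 table. No library of the siEXOSC3 table correlated best with its own number, while replicates 2 and 3 of the siDDX1 table did and replicate 1 did not. With the replicate number as a block, 4 members rose and 2 fell in siEXOSC3, and 18 rose and 3 fell in siDDX1. Hist1h1e was not called in siEXOSC3 in that fit. In siDDX1 the increases were 9 of 12 tested H4 genes, 6 of 16 H2B, 2 of 10 H3 and 1 of 13 H2A genes. The 3 decreases were H2A genes. The single call reported for siDDX1 is that of the fit without the block.

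Depth is unknown in FPKM, and no counting interval is given. The precision rests on 3 libraries against 3.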
